A study of Anas platyrhynchos with 8 samples.

Results

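The 34 genes described here are genes by which lymphocytes are usually recognised, chosen by symbol: 17 of T cells, 9 of B cells and 8 shared by both or found in other blood cells as well. Of these, 30 were found under their symbol among the 13213 symbols of the mRNA table (14 of T cells, 8 of B cells and 8 shared), and 22 of the 30 held enough reads to be tested. They were measured in abdominal fat of ducks (Anas platyrhynchos) from an F2 population at day 42 after birth, in 4 libraries from ducks with a high abdominal fat ratio (HF-1 to HF-4) and 4 from ducks with a low ratio (LF-1 to LF-4). All ducks were kept under the same conditions with free access to feed and water, and no treatment is named. Sex, batch and the number of birds behind each library are not given, so a p-value here reflects the spread among 8 libraries, which may be partly technical.

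A library held between 12696240 and 30836178 estimated counts, and the 30 genes together held between 1854 and 4770 of them, or 0.0113% to 0.0213% of a library. Levels within a gene are given as CPM, counts scaled to library size with TMM factors, and levels between genes as FPKM, which is divided by transcript length. A further feature of the libraries touches every comparison below. Transcripts described as W-linked held 1818 to 4226 counts in each of the 4 HF libraries and 2861 in LF-4, but at most 8 in LF-1, LF-2 and LF-3, so that fat group and W content cannot be told apart in 7 of the 8 libraries.

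T cells recognise antigen through a receptor that signals by way of the CD3 chains (CD3D, CD3E and, in mammals, CD3G) and the zeta chain CD247. The kinases LCK and ZAP70 and the theta form of protein kinase C, PRKCQ, carry that signal onward, with CD4 or CD8A as co-receptor and CD2, CD5 and CD28 as accessory receptors. B cells signal through CD79A and CD79B by way of SYK, BTK and the adapter BLNK, and mature in birds in the bursa of Fabricius. In mammals, fat holds resident lymphocytes among its stromal cells, and BTK, SYK, IL2RG, CD40 and IKZF1 are also used by myeloid cells such as macrophages.

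Lymphocyte transcripts were present at low levels. Only 4 of the 30 genes averaged at least 5 FPKM over the 8 libraries, 14 averaged at least 1 and 12 were under 0.5, while the median over all genes tested was 9.18 FPKM. That median leaves out genes with too few reads to be tested, while the 30 include such genes. CXCR4, the receptor for the chemokine CXCL12 and widely expressed outside lymphocytes, was the most abundant at 26.2 FPKM. It was followed by CD40, a receptor by which B cells and myeloid cells take T-cell help, at 8.87 FPKM, by BTK at 7.23 and by CD3D at 5.97. CD3D was thus the most abundant of the T-cell genes, and its level exceeded that of its partner CD3E (1.21 FPKM) and of CD247 (0.806). IL2RG, the gamma chain shared by several interleukin receptors, stood at 3.37, the lymphoid transcription factor IKZF1 (Ikaros) at 3.22, and IL7R, the receptor for interleukin 7, at 2.41 FPKM. The immunoglobulin joining chain JCHAIN stood at 1.83 FPKM, and the B-cell factors PAX5 and CXCR5 at 0.090 and 0.0225. CD4 stood at 0.0638 and CD8A at 0.260 FPKM.

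**Figure D1:**
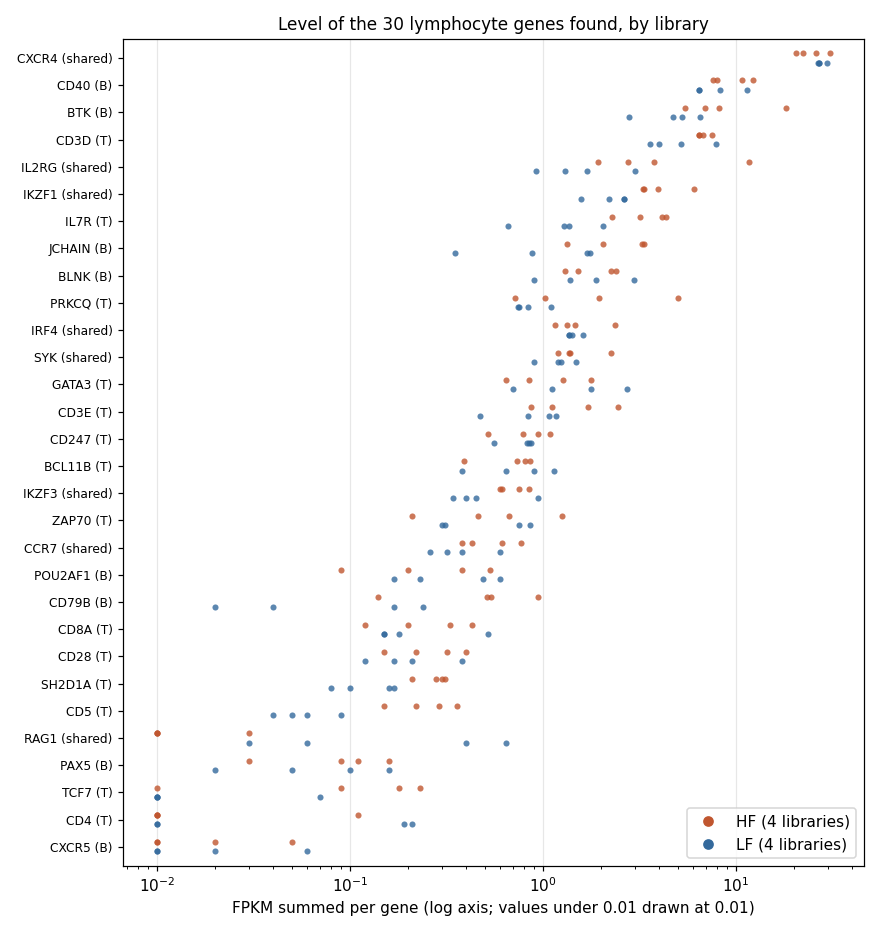
FPKM per library (log axis) of the 30 genes found, ordered by mean level, with 4 HF points above 4 LF points for each gene. CXCR4 leads at a mean of 26.2 FPKM, and the points of the 2 groups overlap for most genes.

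The fat groups were compared to ask whether lymphocyte genes differ with fat deposition. In edgeR's quasi-likelihood test, 0 of the 22 tested genes passed an adjusted p under 0.05, against 0.647% of the 10511 genes tested (68 genes), and the smallest adjusted p among the 22 was 0.106. At an unadjusted p under 0.05 there were 5 of 22, all higher in HF, against 7.49% of all genes higher in HF and 15% in either direction. They were IL7R, IKZF1, IL2RG, BTK and PRKCQ. Limma on log2 FPKM also called 0 of them. DESeq2 called 2, IL7R and IKZF1, both higher in HF, where it called 5.67% of all genes in either direction and 2.9% as higher in HF. Of the 22 genes 19 had a positive log2 fold change (higher in HF), against 50.2% of all genes tested, and the median was 0.30 against 0.0012 over all genes. Only genes that held enough reads enter these counts. In bulk tissue, the number of lymphocytes, the RNA per lymphocyte and expression in other cell types cannot be told apart.

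**Figure D2:**
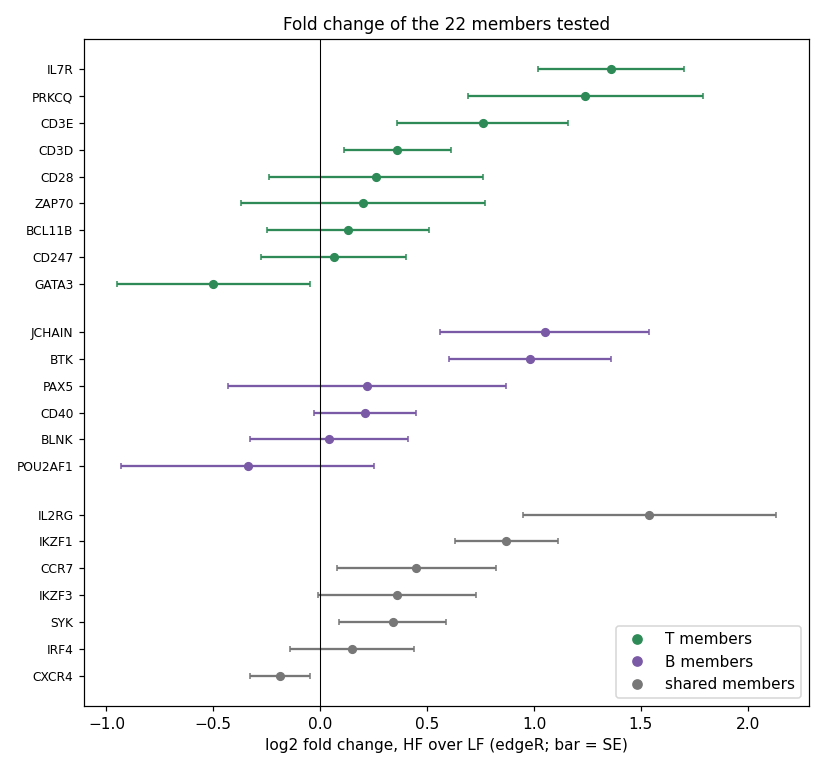
Log2 fold change of HF over LF with its SE for the 22 genes tested, T-cell genes at the top, then B-cell and shared genes. IL2RG (1.54) and IL7R (1.36) lie farthest to the right, and GATA3 (-0.50) farthest to the left.

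Among T-cell genes, IL7R had the smallest p-value. IL7R carries the interleukin 7 signal that keeps resting T cells alive, and RefSeq places it on chromosome Z (assembly IASCAAS_PekinDuck_T2T). It had 15.05, 15.12, 11.4 and 8.24 CPM in HF-1 to HF-4, against 7.48, 2.46, 4.83 and 4.86 CPM in LF-1 to LF-4. Every HF library lay above every LF library, which was so for 4.55% of all genes tested. IL7R averaged 12.5 ± 3.30 CPM in HF and 4.91 ± 2.05 CPM in LF (SD, n = 4 each), a log2 fold change of 1.36 ± 0.34 (SE) with an edgeR adjusted p of 0.106. DESeq2 gave an adjusted p of 0.00472. Leaving out each library in turn gave 1.13 to 1.62 (edgeR adjusted p from 0.0976 to 0.241), and a covariate for W content gave 1.35 (edgeR adjusted p = 0.27). With that covariate the comparison is in effect between the 4 HF libraries and LF-4, a single library taken to vary as much as the rest. LF-4, the LF library with W transcripts, lay at 4.86 CPM, below all 4 HF libraries.

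The CD3 chains differed less. CD3D had 7.21, 8.04, 7.19 and 7.45 CPM in HF-1 to HF-4, against 4.50, 4.14, 8.63 and 5.997 CPM in LF-1 to LF-4. The HF libraries lay close together, while LF-3 was the highest of all 8 libraries. Its log2 fold change was 0.36 ± 0.25 (SE; edgeR adjusted p = 0.552), and 0.61 without LF-3. CD3E had 3.81, 5.26, 1.93 and 2.49 CPM in HF-1 to HF-4, against 2.41, 1.92, 2.55 and 1.09 CPM in LF-1 to LF-4, so the groups overlapped. It averaged 3.37 ± 1.49 CPM in HF and 1.99 ± 0.659 CPM in LF (SD, n = 4 each), with a log2 fold change of 0.76 ± 0.40 (edgeR adjusted p = 0.412). That value was 0.47 without HF-2 and 1.61 with the W covariate (edgeR adjusted p = 0.224).

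PRKCQ was highest by far in HF-3. It had 3.48, 4.31, 23.6 and 8.88 CPM in HF-1 to HF-4, against 3.78, 5.38, 3.90 and 3.93 CPM in LF-1 to LF-4. HF-1 and HF-2 lay within or below the LF range, and HF-3 and HF-4 above it. The log2 fold change was 1.24 ± 0.55 (SE; edgeR adjusted p = 0.324), and 0.39 without HF-3.

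The other 5 tested T-cell genes lay between -0.50 and 0.26 on the log2 scale (HF over LF), with SE from 0.34 to 0.57 and edgeR adjusted p from 0.657 to 0.953. ZAP70, which docks on the phosphorylated CD3 and zeta chains, averaged 1.80 ± 1.21 CPM in HF and 1.57 ± 0.801 CPM in LF. CD247 averaged 1.55 ± 0.433 CPM in HF and 1.48 ± 0.277 CPM in LF, CD28 0.657 ± 0.261 CPM in HF and 0.557 ± 0.293 CPM in LF, and the T-lineage factor BCL11B 3.33 ± 1.11 CPM in HF and 3.06 ± 1.13 CPM in LF (SD, n = 4 each). GATA3, a factor of helper T cells that fat precursor cells also express, averaged 3.27 ± 1.41 CPM in HF and 4.66 ± 2.60 CPM in LF and was the only T-cell gene tested with a negative fold change, which turned to 0.63 with the W covariate. The median log2 fold change of the 9 tested T-cell genes was 0.26, and 0.053 without HF-2.

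Of the 6 tested B-cell genes, BTK and JCHAIN had the largest fold changes and neither passed. BTK, the kinase downstream of the B-cell receptor that myeloid cells use too, had 16.2, 12.3, 41.5 and 19.0 CPM in HF-1 to HF-4, against 15.1, 12.6, 10.8 and 6.69 CPM in LF-1 to LF-4. HF-3 stood far above every other library, and HF-2 lay within the LF range. The log2 fold change was 0.98 ± 0.38 (SE; edgeR adjusted p = 0.269), 0.50 without HF-3 and 1.74 with the W covariate (edgeR adjusted p = 0.195).

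JCHAIN, which links immunoglobulin units and is made by plasma cells, had 6.01, 2.34, 3.73 and 6.03 CPM in HF-1 to HF-4, against 0.643, 1.65, 3.16 and 3.24 CPM in LF-1 to LF-4. HF-2 was the exception among the HF libraries, below LF-3 and LF-4. JCHAIN averaged 4.53 ± 1.82 CPM in HF and 2.17 ± 1.25 CPM in LF (SD, n = 4 each), a log2 fold change of 1.05 ± 0.49 (edgeR adjusted p = 0.357). With the W covariate it was 0.49 (edgeR adjusted p = 0.782).

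CD40 had 8.08, 11.98, 7.64 and 10.8 CPM in HF-1 to HF-4, against 8.44, 6.70, 11.3 and 6.77 CPM in LF-1 to LF-4. The groups overlapped, with HF-2 the highest library and LF-2 the lowest (log2 fold change 0.21 ± 0.24, edgeR adjusted p = 0.729). POU2AF1, a partner of octamer-binding factors in B cells, had 1.62, 0.657, 0.270 and 1.10 CPM in HF-1 to HF-4, against 1.53, 0.740, 0.557 and 1.86 CPM in LF-1 to LF-4. Its log2 fold change was -0.34 ± 0.59 (edgeR adjusted p = 0.838), or 0.0032 without LF-4. BLNK averaged 4.74 ± 1.32 CPM in HF and 4.64 ± 2.27 CPM in LF, and PAX5, the factor that holds B-cell identity and a gene of chromosome Z in RefSeq, 0.516 ± 0.257 CPM in HF and 0.447 ± 0.317 CPM in LF (SD, n = 4 each). The median log2 fold change of the 6 tested B-cell genes was 0.21, and leaving out libraries moved it as low as 0.032 (HF-2 left out) and as high as 0.58 (LF-3 left out).

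**Figure D3:**
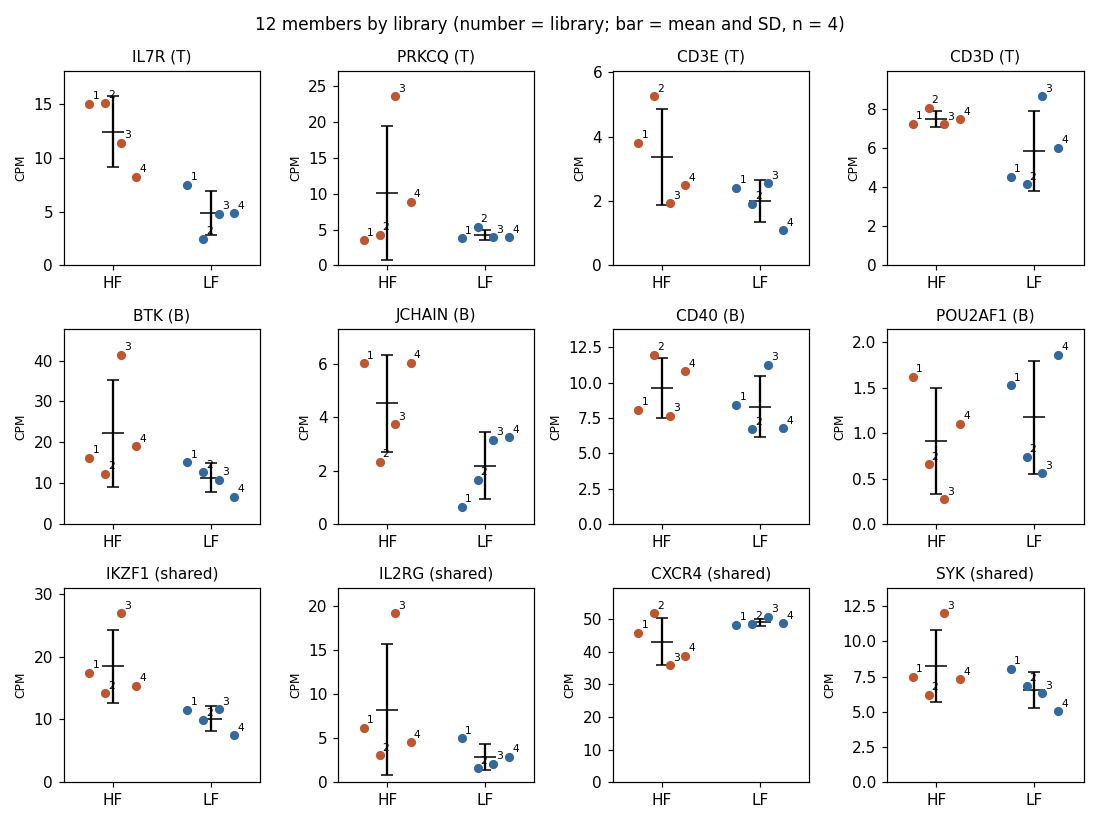
CPM of 12 genes in each library (numbers give the library), with mean and SD of 4 libraries per group, for the 4 smallest p-values among T-cell, B-cell and shared genes. The groups separate for IL7R and IKZF1, while HF-3 is the highest library for PRKCQ, BTK and IL2RG.

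Among the genes shared by lymphocyte classes, IKZF1 was the 1 of the 7 tested whose groups did not overlap. Every HF library lay above every LF library for 4.55% of all genes tested, and below for 4.64%. IKZF1 is a transcription factor needed for all lymphocyte lineages. It had 17.5, 14.2, 26.9 and 15.4 CPM in HF-1 to HF-4, against 11.5, 9.89, 11.65 and 7.46 CPM in LF-1 to LF-4. It averaged 18.5 ± 5.78 CPM in HF and 10.1 ± 1.95 CPM in LF (SD, n = 4 each), with a log2 fold change of 0.87 ± 0.24 (SE; edgeR adjusted p = 0.136). The DESeq2 adjusted p was 0.0222. The edgeR fold change was 0.64 without HF-3, and ranged up to 0.98 when other libraries were left out (edgeR adjusted p from 0.113 to 0.251). It was 1.31 with the W covariate (edgeR adjusted p = 0.12).

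IL2RG had 6.22, 3.07, 19.2 and 4.56 CPM in HF-1 to HF-4, against 4.99, 1.58, 2.09 and 2.92 CPM in LF-1 to LF-4. HF-3 again stood far above the rest, and LF-1 lay above HF-2 and HF-4. The log2 fold change of 1.54 ± 0.59 (edgeR adjusted p = 0.26) was the largest of the 22 genes, and it was 0.70 without HF-3.

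SYK, the kinase that reads phosphorylated B-cell and Fc receptors and also a gene of chromosome Z in RefSeq, had 7.46, 6.21, 11.99 and 7.32 CPM in HF-1 to HF-4, against 8.04, 6.83, 6.31 and 5.02 CPM in LF-1 to LF-4. Its log2 fold change of 0.34 ± 0.25 (edgeR adjusted p = 0.577) was 0.10 without HF-3.

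CXCR4, unlike most of the genes, had a negative fold change. It had 45.7, 51.7, 35.8 and 38.7 CPM in HF-1 to HF-4, against 48.2, 48.4, 50.6 and 48.6 CPM in LF-1 to LF-4, with a log2 fold change of -0.19 ± 0.14 (edgeR adjusted p = 0.557). HF-2 lay above all LF libraries and the other 3 HF libraries below them. The homing receptor CCR7, IKZF3 (Aiolos) and IRF4, a factor of activated lymphocytes and plasma cells, lay between 0.15 and 0.45 on the log2 scale (edgeR adjusted p from 0.607 to 0.858). IRF4 averaged 2.94 ± 0.921 CPM in HF and 2.64 ± 0.193 CPM in LF. CCR7 averaged 2.35 ± 0.774 CPM in HF and 1.72 ± 0.593 CPM in LF, and IKZF3 2.89 ± 0.531 CPM in HF and 2.25 ± 1.14 CPM in LF (SD, n = 4 each). The median over the 7 tested shared genes was 0.36, and 0.71 without LF-3.

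A further 8 genes were found but held too few reads to be tested: CD4, CD5, CD8A, SH2D1A, TCF7, CD79B, CXCR5 and RAG1. At these depths, 3 counts correspond to between 0.101 and 0.241 CPM, so a library at 0 allows a level up to that limit. Such limits reflect counting error and no other source of spread. CD5, a brake on antigen receptor signals, had 22, 5, 16 and 12 reads in HF-1 to HF-4, against 2, 3, 5 and 3 reads in LF-1 to LF-4. In CPM all HF libraries lay above all LF libraries for CD5 and for SH2D1A, the adapter of SLAM receptors in T cells, which was so for 4.13% of all genes with any count. For SH2D1A, HF-2 (4 reads, 0.292 CPM) and LF-2 (8 reads, 0.269 CPM) were close. In a fit without the low-count filter 0 of the 8 passed, against 0.511% of the 12533 genes in it. The unadjusted edgeR p was under 0.05 for 3 of them, CD5, CD79B and RAG1, against 13.6% of the genes in that fit. The log2 fold change was 2.04 ± 0.58 for CD5 (edgeR adjusted p = 0.158) and 1.07 ± 0.56 for SH2D1A (edgeR adjusted p = 0.441).

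CD79B, a signalling chain of the B-cell receptor, had 20, 3, 34 and 19 reads in HF-1 to HF-4, against 5, 2, 6 and 1 reads in LF-1 to LF-4. In CPM the groups overlapped, since HF-2 at 0.219 lay below LF-1 at 0.402 and LF-3 at 0.278. The same fit gave CD79B a log2 fold change of 2.23 ± 0.81 (edgeR adjusted p = 0.267). CD8A, the co-receptor of cytotoxic T cells, had 16, 4, 4 and 11 reads in HF-1 to HF-4, against 3, 7, 17 and 7 reads in LF-1 to LF-4, or 35 counts in HF and 34 in LF in all. TCF7, a factor of naive T cells, had 29 counts in HF and 5 in LF, and CXCR5, the receptor that guides cells into follicles, 6 in HF and 7 in LF. CD4 had 4 counts in HF, all in HF-4, and 19 in LF, in LF-2 and LF-4.

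RAG1, the recombinase that assembles antigen receptor genes in immature lymphocytes, had fewer reads in HF than in LF and did not pass. It had 5, 0, 2 and 0 reads in HF-1 to HF-4, against 5, 138, 5 and 73 reads in LF-1 to LF-4. In CPM all HF libraries lay below all LF libraries, which was so for 4.06% of genes with any count, although HF-1 at 0.207 and LF-3 at 0.232 were close. All reads of RAG1 fell in an assembled transcript model, and the RefSeq row of RAG1 was at 0 in all libraries. The strand used in counting is not given in the sources used here, so reads of an overlapping gene on the other strand cannot be told apart. RAG2, its partner, had 32 counts over all 8 libraries. Without the filter RAG1 had a log2 fold change of -4.59 ± 1.18 (edgeR adjusted p = 0.125).

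CD3G, LCK, CD2 and CD79A were not found under their symbols and are not analysed here by symbol. In the chicken a shared gene stands in place of the mammalian CD3D and CD3G. Rows without a symbol but with a matching description, chosen after their values were seen, held some of the missing members. Rows described as the CD2 antigen had 3.34, 2.48, 8.06 and 3.17 CPM in HF-1 to HF-4, against 2.097, 1.39, 2.75 and 2.33 CPM in LF-1 to LF-4. HF-3 was again the highest and HF-2 overlapped LF-3. A row described as a T-cell receptor alpha chain had 0.792, 0.993, 3.58 and 2.002 CPM in HF-1 to HF-4, against 0.932, 0.948, 2.2 and 1.146 CPM in LF-1 to LF-4, with overlap (log2 fold change 0.49 ± 0.65, edgeR adjusted p over transcripts 0.974). A RefSeq row described as CD4 held 8, 5, 6 and 0 reads in HF-1 to HF-4, against 3, 0, 1 and 0 reads in LF-1 to LF-4, where the assembled model that carries the symbol had reads in the libraries in which this row had 0. The CD4 symbol alone is thus an incomplete count of CD4. The same holds for CD8A, since rows without a symbol described as its alpha chain held a further 15, 3, 5 and 6 reads in HF-1 to HF-4, against 1, 3, 9 and 7 reads in LF-1 to LF-4.

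Behind the sums per gene, reads were spread over 94 transcript rows, of which 70 held any count. For CD3E, 1 of its 2 rows held nearly all the reads in HF-1, LF-1 and LF-3 and the other held them in the remaining libraries, though both are described as the same epsilon chain. IKZF1 had 14 rows, and an assembled model held 60.6% of its counts. That model stood at 11.1, 9.15, 14.3 and 10.9 CPM in HF-1 to HF-4, against 5.44, 5.35, 7.75 and 5.08 CPM in LF-1 to LF-4, without overlap (log2 fold change 0.94 ± 0.27, edgeR adjusted p over transcripts 0.421). It is part of the IKZF1 sum already given, and the share of all transcripts without overlap is not given here. The IKZF1 row with 13% of the counts went the other way, at -1.19 ± 0.67. The other IKZF1 rows tested lay between 0.50 and 3.35. In IRF4, a row described as IRF4-like held 89.5% of the counts, so the sum may join 2 genes. PRKCQ and BTK were divided among 3 main rows each. Tested as transcripts, 0 of 35 rows passed, against 0.0168% of all 23879 transcripts (4 transcripts). An unadjusted edgeR p under 0.05 was found for 3 of the 35 rows, against 7.42% of all transcripts.

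The genes did not follow one order of libraries. HF-2 was the highest HF library for 8 of the 9 tested T-cell genes, PRKCQ being the exception. It was the highest of all 8 libraries for 7 of the 22 genes, against 11.9% of all genes tested. HF-3 was the highest of all 8 libraries for 5 of the 22 genes (PRKCQ, BTK, IL2RG, IKZF1 and SYK) and the lowest for 4, where it was the highest for 17.3% of all genes tested. In HF-3 ZAP70 stood at 0.584 CPM, the lowest of all libraries, while PRKCQ, which acts beside it in the same receptor pathway, was at its highest. LF-4 was the lowest library for 7 of the 22 genes and LF-2 for 6. The share over all genes is not given here for the lowest library or for the highest HF library. With the W covariate the median log2 fold change was 0.99 for T-cell, 0.50 for B-cell and 0.72 for shared genes, with 0 of the 22 past the threshold.

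**Figure D4:**
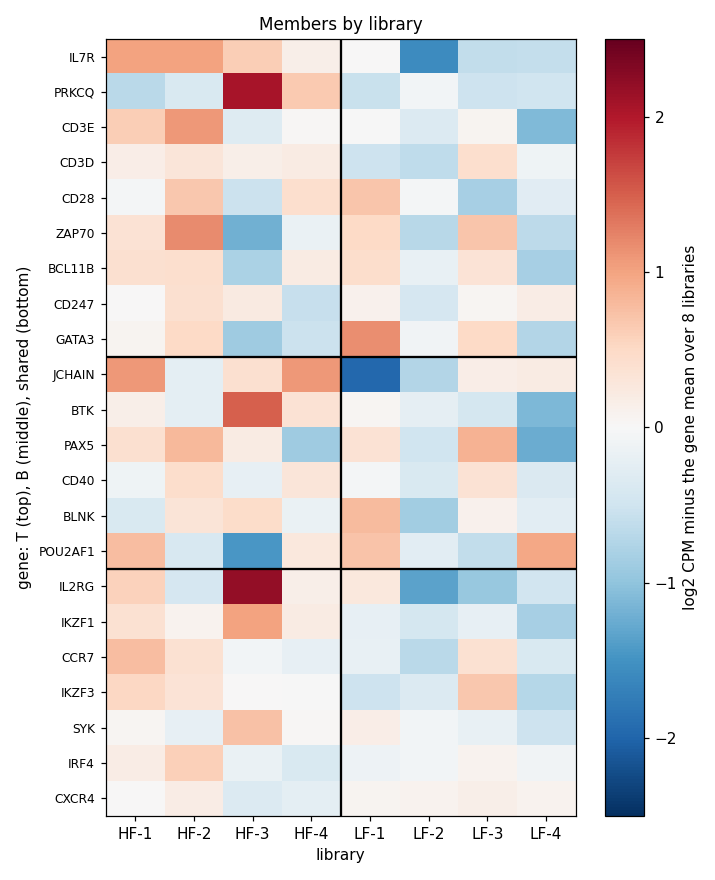
Log2 CPM of the 22 tested genes in each library minus the gene's mean over 8 libraries, with HF libraries left of LF. HF-3 is red for PRKCQ (2.05), IL2RG (2.2) and BTK (1.49) and blue for ZAP70 (-1.20) and POU2AF1 (-1.45), and HF-2 is red across most T-cell genes.

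Summed over genes, T-cell members reached 43.8, 49.2, 52.2 and 38.0 CPM in HF-1 to HF-4, against 35.7, 23.5, 34.2 and 23.6 CPM in LF-1 to LF-4, without overlap. IL7R and PRKCQ made up a large share of these sums. Over the other 12 T-cell genes the sum was 25.3, 29.7, 17.2 and 20.8 CPM in HF-1 to HF-4, against 24.5, 15.7, 25.5 and 14.8 CPM in LF-1 to LF-4, with overlap. B-cell members summed to 43.5 ± 12.3 CPM in HF and 28.3 ± 5.73 CPM in LF, and without BTK to 21.3 ± 1.39 CPM in HF and 17 ± 4.08 CPM in LF (SD, n = 4 each). These partial sums were formed after the values were seen and are not tested.

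Marker genes of other blood cells were also present. Of 17 macrophage genes found (of 22 listed), none was at 0 in all libraries. Of the 16 tested, 15 were positive, with a median log2 fold change of 0.50. An unadjusted edgeR p under 0.05 was found for 7 of the 16, all higher in HF, against 7.49% of all genes. For 4 of the 16 every HF library lay above every LF library, against 4.55% of all genes. DESeq2 called 4, all higher in HF, against 2.9% of all genes. In the main edgeR fit 1 passed as higher in HF, against 0.295% of all genes. This was MPEG1, a pore-forming protein of macrophages. MPEG1 had 39.6, 32.8, 42.4 and 39.8 CPM in HF-1 to HF-4, against 22.2, 16.2, 18.1 and 14.6 CPM in LF-1 to LF-4 (log2 fold change 1.12 ± 0.16, edgeR adjusted p = 0.0196). Leaving out HF-1, HF-3, HF-4 or else LF-3 ended the call for MPEG1 (edgeR adjusted p from 0.0501 to 0.082). The summed level of the macrophage list overlapped, at 1435 to 2386 CPM in HF and 1263 to 2143 CPM in LF, and HF-3 was the highest library for 9 of the 16 genes.

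The list of genes common to all leukocytes had a median of 0.58 over 15 genes, 13 of them positive and 0 past the threshold, and 0.29 without HF-3. An unadjusted edgeR p under 0.05 was found for 9 of the 15, 8 of them higher in HF, against 7.49% of all genes higher in HF. For 6 of the 15 every HF library lay above every LF library, against 4.55% of all genes. DESeq2 called 3, all higher in HF, against 2.9% of all genes. HF-3 was the highest library for 12 of the 15. The list summed to 657 to 1111 CPM in HF and 647 to 661 CPM in LF, and the 3 HF libraries other than HF-3 lay between 657 and 693. LCP1, an actin-bundling protein of leukocytes, averaged 163.5 ± 49.3 CPM in HF and 89.95 ± 12.8 CPM in LF (edgeR adjusted p = 0.0944, DESeq2 adjusted p = 0.00447). The integrin chain ITGB2 had 44.0, 42.8, 198 and 55.1 CPM in HF-1 to HF-4, against 36.0, 21.2, 29.2 and 21.7 CPM in LF-1 to LF-4 (edgeR adjusted p = 0.157, DESeq2 adjusted p = 0.0109). The part of macrophages and of HF-3 in the levels of BTK, IL2RG, SYK, PRKCQ and IKZF1 was not tested beyond the values without HF-3 given above.

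**Figure D5:**
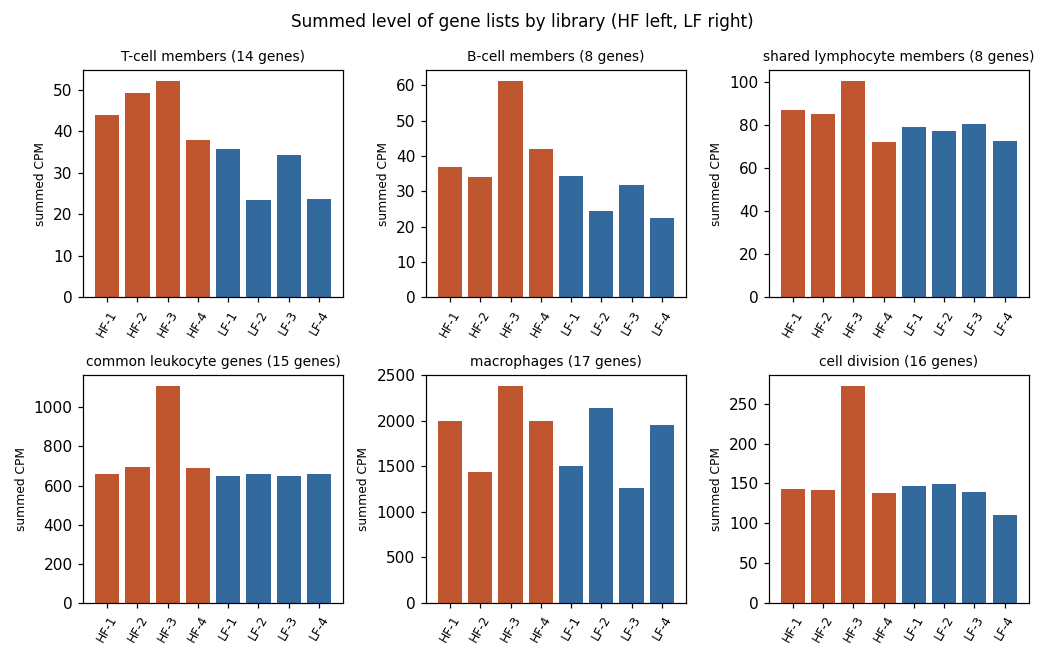
Summed CPM per library of 6 gene lists, HF libraries left of LF. T-cell members separate the groups, though not when IL7R and PRKCQ are left out. HF-3 is the highest library in all 6 lists, among them T-cell members (52.2 CPM), common leukocyte genes (1111 CPM) and cell division (273 CPM).

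Other genes of the antigen receptor pathways also gave no call in the main edgeR fit. Of 44 listed genes of T-cell receptor signalling and T-cell state, 29 were tested, 22 were positive with a median log2 fold change of 0.21, and 0 passed. Unadjusted edgeR p was under 0.05 for 4 of the 29, all higher in HF, against 7.49% of all genes higher in HF. VAV1, an exchange factor downstream of antigen receptors, averaged 6.11 ± 2.28 CPM in HF and 2.85 ± 0.971 CPM in LF without overlap (log2 fold change 1.12 ± 0.33, edgeR adjusted p = 0.158). HAVCR2 (TIM-3), a receptor of exhausted T cells and of macrophages, was at 1.87 ± 0.71 (edgeR adjusted p = 0.256), and 1.31 without HF-3. Of 34 genes of B-cell receptor signalling and plasma cells, 18 were tested, 14 were positive with a median of 0.38, and 0 passed. Here 7 of the 18 had an unadjusted edgeR p under 0.05, 6 higher and 1 lower in HF, against 15% of all genes in either direction. The phosphatase PTPN6 averaged 27.7 ± 6.42 CPM in HF and 16.6 ± 3.24 CPM in LF (log2 fold change 0.74 ± 0.21, edgeR adjusted p = 0.142), and the repressor BCL6 71.7 ± 21.99 CPM in HF and 40.1 ± 9.58 CPM in LF (0.84 ± 0.24, edgeR adjusted p = 0.15). DESeq2 called VAV1 (adjusted p = 0.0311), PTPN6 (0.0284) and BCL6 (0.0263), all higher in HF, and no other gene of either list. It called 2.9% of all genes as higher in HF.

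Of 17 cytotoxic and natural killer genes, 6 were tested with a median of 0.34, or 0.12 without HF-2, and 0 passed. CST7 was at 1.13 ± 0.46 and TNFSF10 at 0.50 ± 0.27 on the log2 scale. Of 24 lymphoid chemokines and survival and homing factors, 9 were tested with a median of -0.014 and 0 passed, and the median was between -0.22 and 0.19 without single libraries and 0.75 with the W covariate. ITGA4, an integrin chain for homing, averaged 67.3 ± 32.4 CPM in HF and 31.0 ± 2.07 CPM in LF without overlap (1.12 ± 0.31, edgeR adjusted p = 0.136, DESeq2 adjusted p = 0.0143). S1PR1, which lets lymphocytes leave tissue and is also an endothelial gene, was at -0.58 ± 0.31 (edgeR adjusted p = 0.418). Of the thymus list of 9 genes, FOXN1 and PAX1 were at 0 in all libraries, and 3 were tested with a median of -0.38, or -0.07 without HF-3, among them DNTT (-0.38 ± 0.44) and AIRE (-0.42 ± 0.58).

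The remaining lists served to describe the tissue. Adipocyte genes summed to 35300 to 52000 CPM in HF and 47330 to 89560 CPM in LF. PNPLA2 alone held 11700 to 23940 CPM of this in HF and 25960 to 64300 CPM in LF. Of the 12 adipocyte genes tested, 6 were positive, 6 were negative and 0 passed in the main edgeR fit (median 0.089). DGAT2 was at 2.29 ± 0.60 and PNPLA2 at -1.16 ± 0.33 on the log2 scale. DESeq2 called 1 higher and 2 lower in HF, among them DGAT2 (adjusted p = 0.0143) and PNPLA2 (0.00449). Over all genes it called 5.67% in either direction and 2.9% as higher in HF. Of the next 4 lists, 0 genes passed in each in the main edgeR fit. Erythroid genes had a median of 0.23 over 6, with EPB42 at 0.42 ± 0.43 and HBAD at 0.39 ± 0.43, and the median was -0.04 without HF-2. They summed to 647, 918, 350 and 424 CPM in HF-1 to HF-4, against 785, 456, 458 and 408 CPM in LF-1 to LF-4. HF-2 was thus highest for these blood genes, as it was among HF libraries for most T-cell genes. Whether blood content bears on the T-cell genes was not tested. Thrombocyte genes had a median of 0.29 over 5, with F13A1 at 0.60 ± 0.40 and ITGB3 at 0.62 ± 0.49, and between 0.11 and 0.46 without single libraries. Endothelial genes had a median of -0.26 over 13, with MMRN1 at -0.88 ± 0.22 and PECAM1 at -0.76 ± 0.20. That median was between -0.50 and -0.10 without single libraries and 0.11 with the W covariate. DESeq2 called MMRN1 (adjusted p = 0.00781) and PECAM1 (0.00787), both lower in HF, against 5.67% of all genes in either direction. For the 15 cell division genes the median was 0.71, with MCM2 at 0.70 ± 0.24 and PLK1 at 1.45 ± 0.58. Without HF-3 that median was 0.28 and PLK1 was at 0.74, and with the W covariate the median was 1.70. Skeletal muscle genes summed to 1157 CPM in LF-3 and 211 CPM in HF-3, against 9.44 to 44.8 CPM in the other libraries. Muscle transcripts were thus highest in LF-3, which had the highest CD3D, and next highest in HF-3. In HF-3, however, CD3D was the lowest of the HF libraries, which lay between 7.19 and 8.04 CPM. A link between muscle transcripts and CD3D was not tested. The median of the muscle genes was -1.61 over 6 genes, but 1.33 without LF-3 and 2.1 with the W covariate. LDB3 was at -1.33 ± 0.86 and ACTN2 at -1.56 ± 1.04, and without LF-3 LDB3 was at -0.094 and ACTN2 at 0.53.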

How the data were processed

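Abdominal fat RNA was extracted with Trizol and sequenced with Illumina chemistry, per the labels' protocols. For each mRNA transcript the authors deposited estimated counts in every library and the matching FPKM values, per the file headers. The tools Bowtie2 2.2.8 and TopHat2 2.1.1 appear, with no role stated, per the submitters' processing notes. How transcripts were quantified, and on which build, is not given in the sources used here. Columns were matched to samples by title. The authors' comparison columns and a column whose heading is unexplained were not used, nor was the lncRNA table, which holds no row under the symbol of a member. Between 0.839% and 0.965% of counts fell in rows that have no symbol, which entered no sum per gene.

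Estimated counts were summed per symbol regardless of case (48592 rows, 13213 symbols) and rounded. HF was tested against LF by the quasi-likelihood method of edgeR 4.0.16 in R 4.3.3. Libraries were scaled by TMM, genes were filtered by filterByExpr, and the model held no covariate. P-values were adjusted over 10511 genes by Benjamini-Hochberg, with a threshold of 0.05. Each SE is the size of the fold change divided by the root of F. The fit was checked on simulated counts with a common dispersion for all genes. Its recovery is not given here, and the check does not measure power for the genes described. Alternatives were DESeq2 1.42.0, other scalings, no filter, limma 3.58.1 on log2(FPKM + 1) and log2(FPKM + 0.1) among genes averaging 0.5 FPKM or more, a replicate block, a covariate for W transcripts, single transcripts, and leaving out each library. The members and the 13 other lists were chosen with earlier results of these data known. All members were accounted for. Values per library were given for the 4 smallest p-values in each class and for defining markers, and of each other list the genes past the threshold or the 2 smallest p-values were named. RAG2, FOXN1 and PAX1 were named after their values were seen. Chromosomes come from the RefSeq gene table of IASCAAS_PekinDuck_T2T.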

Additional observations from a re-analysis of the deposited data

Results flagged for a closer look

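Of the levels of the 30 genes in each group of 4 libraries, 4 had a library far from the other 3 by Dixon's criterion for a gap relative to the range, where chance gives about 1 in 20 of the 60 groups examined. PRKCQ stood at 5.38 CPM in LF-2, against 3.78 to 3.93 in the other LF libraries. CD8A stood at 0.789 CPM in LF-3, against 0.235 to 0.284 in the others. CD4 stood at 0.184 CPM in HF-4 and TCF7 at 0.168 CPM in LF-2, with the other 3 libraries of the group at 0 under the symbol in each case. With 3 libraries at 0 the criterion is always met, so the rate of 1 in 20 does not apply to CD4 and TCF7. For CD4 those zeros do not mean no CD4 reads, since a RefSeq row without a symbol described as CD4 held 8, 5 and 6 reads in HF-1 to HF-3 and 0 in HF-4.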

How the results depend on the processing

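The number of lymphocyte genes past the threshold was 0 in every alternative fit other than DESeq2, which gave 2, leaving out any library included. The number over all genes was 68, and 596 with DESeq2, 128 with the W covariate, 34 with limma on log2(FPKM + 1) without a filter, 4 with transcripts as deposited and 2 to 92 without single libraries. With the replicate number as a block it was 9. Same-numbered libraries did not deviate together (r from -0.215 to 0.028 over genes), so the numbers were not taken as pairs. Without single libraries the median log2 fold change ranged from 0.053 to 0.50 for T-cell, 0.032 to 0.58 for B-cell and 0.23 to 0.71 for shared genes. With the W covariate these were 0.99, 0.50 and 0.72. For B-cell genes the median was 0.47 with limma on log2(FPKM + 1) and 0.58 with log2(FPKM + 0.1). Both limma medians cover only 4 genes, since PAX5 (0.090 FPKM) and POU2AF1 (0.336 FPKM) averaged under 0.5 FPKM. They are thus not comparable with the 0.21 over 6 genes in the main fit, where these 4 stood at 0.98 (BTK), 1.05 (JCHAIN), 0.21 (CD40) and 0.042 (BLNK). Of 787 values under alternatives for the 22 tested members and 25 named genes of other lists (47 genes), 745 kept direction and call, 14 gained and 5 lost a call, and 23 changed sign. With the W covariate the sign changed for ACTN2 (1.70), LDB3 (1.29), GATA3 (0.63), CD247 (-0.14) and S1PR1 (0.016). With limma it changed for BCL11B (-0.077 with log2(FPKM + 0.1), and -0.046 with log2(FPKM + 1) with or without a filter). Without single libraries it changed for ACTN2 (-2.40 to 0.53), POU2AF1 (-0.78 to 0.0032), ZAP70 (-0.29 to 0.50), CD247 (-0.068 to 0.23), BCL11B (-0.08 to 0.35), BLNK (-0.18 to 0.39), PAX5 (-0.11 to 0.76) and IRF4 (-0.055 to 0.29). The cause was not tested. MPEG1 lost its call with the block (edgeR adjusted p = 0.0951). Depth limits the genes under 100 counts in all, such as CD4, CD5, CD8A and CD79B.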
